A study of Mus musculus with 12 samples.

Results

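Oxidative phosphorylation is carried out by 5 protein complexes of the inner mitochondrial membrane, and the subunits of these complexes that are encoded in the nucleus were followed here by ribosome footprints in single cells of mouse epidermis. The genes were chosen by symbol. They are the Nduf subunits of complex I (36 genes), the Sdh subunits of complex II (4), the Uqcr subunits and Cyc1 of complex III (9), the somatic cytochrome c gene Cycs, the common Cox subunits of complex IV (10) and the Atp5 subunits of complex V (14). They make 74 of the 22416 genes counted. The subunit b gene of complex V is listed under another symbol and was not taken in by the choice.

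A footprint is the piece of an mRNA protected by a translating ribosome during digestion, so its count reflects both how much mRNA a cell held and how densely it was translated. Cells came from the back skin of female C57Bl/6 mice. All animals received cycloheximide, which stalls ribosomes, before death, and all cells were freed with trypsin and sorted alive, 1 per well. The young animals P57, P59 and P60 and the old animals P662, P722 and P758 are named for their postnatal days (n = 3 per age), and they filled 10 plates. Cells negative for Sca-1, and a trial of ribonucleases on P758 cells, took up 1 plate each and entered no comparison. It is assumed that plates with equal age and postnatal day belong to 1 animal.

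Complexes I and II pass electrons from NADH and succinate to ubiquinone, complex III passes them to cytochrome c, and complex IV passes them to oxygen. Complexes I, III and IV pump protons, and complex V, the ATP synthase, uses the gradient to make ATP. A few subunits of complexes I, III, IV and V are encoded in mitochondrial DNA and made by mitochondrial ribosomes, while the others, and all of complex II, are made in the cytosol and imported. In skin, basal keratinocytes divide, suprabasal cells build keratin and the barrier, and sebaceous gland cells synthesise lipid.

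Nuclear subunit genes are known to share regulators, among them nuclear respiratory factor NRF1, ETS factors of the GABP type, YY1 and estrogen-related receptors. RefSeq promoters (build GRCm38.p6, from 250 bases before to 50 after each start) were found by symbol for 62 of the 74 genes. The NRF1 motif was searched as GCGC, any base and TGCGC, on both strands, and was in the promoters of 17 of the 62 (27.4%) and of 5.19% of the 27025 genes with a promoter. Of those 17, complex I had 7, complex II 2, complex III 1, complex IV 1 and complex V 6. The ETS letters CCGGAAG, on either strand like the next, were in 16 (25.8%, against 9.93% of all), the YY1 letters AAGATGG in 10 (16.1%, against 7.28%) and the estrogen-related receptor letters AAGGTCA in 8 (12.9%, against 5.38%). Sdhd, a membrane anchor of complex II, held all but the YY1 letters. A match describes letters only. The stretches below show the shared NRF1 letters in 1 gene each of complexes I, II, IV and V, all upstream of a RefSeq start, and the receptor letters of Atp5g3, a gene whose footprints were tested below. Each is on the gene's strand, 5′ to 3′, with the motif in capitals.
Ndufa11, chr17:56717692-56717721, plus strand: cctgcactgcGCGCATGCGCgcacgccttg
Sdha, chr13:74350276-74350305, minus strand: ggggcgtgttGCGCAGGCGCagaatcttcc
Cox6a1, chr5:115349056-115349085, minus strand: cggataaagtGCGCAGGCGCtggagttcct
Atp5c1, chr2:10080433-10080459, minus strand: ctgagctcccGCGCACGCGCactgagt
Atp5g3, chr2:73911362-73911388, minus strand: tgttacaaagTGACCTTgagcgtcttc
The motif lay 51 bases before the start in Ndufa11, 46 in Sdha, 108 in Cox6a1, 8 in Atp5c1 and 46 in Atp5g3. For Atp5c1 and Atp5g3 that start lies inside the annotated gene, so both stretches are upstream of an internal start only. Sdha and Cox6a1 each had further matches. In Uqcrc1 the only match lay past the upstream stretch and is not shown.

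Of 1924 wells, 1906 held at least 100 counts and were kept. Depth was very uneven. P60 had 2384294 counts from 981 wells and P758 had 896688 from 627, while P662 had 70549 from 199, P722 had 12886 from 38, P59 had 12371 from 48 and P57 had 5230 from 13. CPM values divide the counts by the animal's total, and the step made by 1 count was 191 CPM in the shallowest animal, P57, against 0.419 CPM in the deepest, P60, so in the shallow animals most members rest on 0 to a few counts. Of the 384 well index sequences, 383 were used on 2 or more plates, and wells were therefore told apart by plate and index together. Markers of epidermal keratinocytes were present in every animal, at a summed 21000 to 70900 CPM for 12 basal genes. The 4 red cell and 5 endothelial markers summed to at most 11.2 CPM in any animal. The 7 fibroblast markers summed to 0 CPM in P57 and to 77.6 to 162 CPM in the other animals. The 6 melanocyte markers summed to 75.5 CPM in P60 and to at most 1.12 CPM in the others.

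Every member had at least 1 count, and the 74 genes together had 26761. Subunits of complex I ran from 6 to 490 counts (median 212.5), of complex II from 124 to 769, of complex III from 58 to 1532, of complex IV from 5 to 1161 and of complex V from 1 to 3892. Lengths were not used, so levels of different genes are not compared. Only 9 members were counted in all 6 animals, namely Ndufs1, Ndufb8, Uqcrc1, Uqcrc2, Cox4i1, Atp5a1, Atp5b, Atp5d and Atp5g3. A further 29 were counted in 5 animals.

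**Figure D1:**
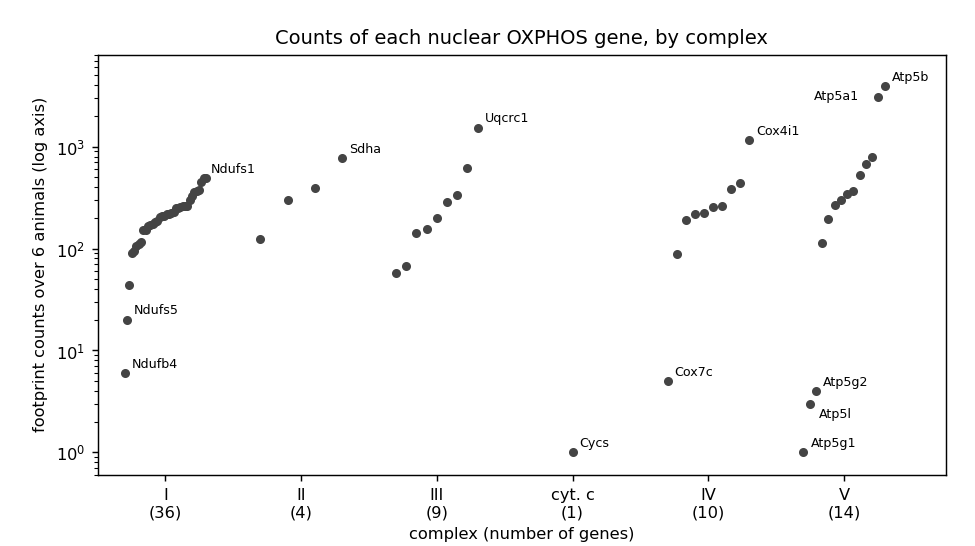
Footprint counts of each of the 74 genes summed over the 6 animals (log axis), 1 point per gene, by complex with the number of genes in brackets. Most points lie between 40 and 4000 counts, and 7 genes of complexes I, IV and V and cytochrome c lie at 20 counts or fewer.

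A group of 7 genes was nearly without footprints. Cycs, which encodes the electron carrier between complexes III and IV, had 1 count in the whole data, Atp5g1 had 1, Atp5l 3, Atp5g2 4, Cox7c 5, Ndufb4 6 and Ndufs5 20. In the c ring of complex V, the rotor that protons turn, Atp5g3 had 790 of the 795 counts, although Atp5g1, Atp5g2 and Atp5g3 all encode the c subunit. Near-identical gene copies or processed pseudogenes exist for genes of this kind, and reads that match more than 1 place may have been dropped or split in the authors' counting. These 7 values are therefore uncertain and do not measure absence of translation.

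The study's main question was how footprints differ between young and old epidermis. Summed over all wells of an animal, the catalytic and core subunits were lower on average in old animals, but no member passed the test. Atp5b (chr10:128083307-128090388), the catalytic β subunit of complex V, had 694.6, 620.8 and 874.3 CPM in P662, P722 and P758, and 1720.8, 1293.4 and 1269.1 CPM in P57, P59 and P60. The ages did not overlap for it. The log2 difference of old over young was -0.81 (SE 0.30), with an adjusted p of 0.998 by edgeR's quasi-likelihood test with Benjamini-Hochberg adjustment over all genes tested. The young P57, which had the highest value, had 9 Atp5b counts in all.

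Only 5 of the 74 members had enough counts to be tested, and all 5 differences were negative, with a median log2 difference of -0.54 against 0.03 over all genes tested. Atp5a1, the α subunit of complex V, had 779.6, 853.6 and 770.6 CPM in P662, P722 and P758 and 2485.7, 727.5 and 971.8 in P57, P59 and P60, and P57 alone stood apart. Its log2 difference was -0.54 (SE 0.39). Uqcrc1 (chr9:108936648-108949641), a core subunit of complex III, averaged 416.7 CPM ± 179.5 when old and 608.9 CPM ± 139.4 when young (SD over 3 animals), and its log2 difference was -0.54 (SE 0.36). Cox4i1, a subunit of complex IV, averaged 253.2 CPM ± 18.6 when old and 398.1 CPM ± 166.4 when young, with a log2 difference of -0.49 (SE 0.28), and P59 at 242.5 CPM lay within the old range. Atp5g3 averaged 210.8 CPM ± 50.9 when old and 314.2 CPM ± 73.1 when young, with a log2 difference of -0.12 (SE 0.29).

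No member was called at an adjusted p of 0.05 in that fit, where 0% of the genes tested were called. At an unadjusted p under 0.05, 25 genes and 1 member passed in edgeR, and DESeq2 called 0 genes, with 6 at an unadjusted p under 0.05. On simulated counts with these depths, 17% of genes changed 2-fold and 75% of those changed 4-fold were called. These shares are over all genes changed in the simulation. How often a gene with as many counts as Atp5b would be called was not tested. Without a filter on low counts all 74 members entered, 0 were called, and 54 were lower and 20 higher in old animals. The median log2 difference was then -0.23 for the members and -0.01 over all genes. With plates as the samples and animals as random effects (limma-voom), 34 of 49 members were lower, and again 0 were called. The medians were -0.17 for the members and 0.06 over all genes.

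Of the 9 members counted in every animal, Atp5b and Uqcrc2 had all 3 old animals below all 3 young (22.2%), and 7.98% of the 1253 genes counted in every animal did so. None had all old above all young, against 2% of those genes. Uqcrc2, the other core subunit of complex III, had 127.6, 77.6 and 176.2 CPM in P662, P722 and P758 and 191.2, 323.3 and 187.5 CPM in P57, P59 and P60, where P722 and P57 rest on 1 count each.

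Other members with high counts in their complexes were below the filter of that fit and are given as values. In complex I, Ndufs1, an iron-sulfur subunit of the N module, had 127.6, 77.6 and 121.6 CPM in P662, P722 and P758 and 191.2, 80.8 and 154.8 CPM in P57, P59 and P60. Ndufb9, an accessory subunit of the membrane arm, had 85.0, 77.6 and 65.8 CPM and 573.6, 0 and 107.4 CPM in the same order. The ages overlapped for both, and the high Ndufb9 value of P57 is 3 counts.

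In complex II, Sdha, the flavoprotein that oxidises succinate, had 113.4, 310.4 and 162.8 CPM in P662, P722 and P758 and 0, 80.8 and 255.8 CPM in P57, P59 and P60. Sdhb, the iron-sulfur subunit, had 85.0, 155.2 and 83.6 CPM and 191.2, 0 and 90.6 CPM, and both genes overlapped between the ages. Sdhc, a membrane anchor, had 0, 77.6 and 105.9 CPM and 573.6, 161.7 and 122.5 CPM, without overlap, though P57 rests on 3 counts, P59 on 2 and P722 on 1. In the deep animals P758 and P60 alone, Sdha was at 162.8 and 255.8 CPM, Uqcrfs1 at 87 and 104 CPM, Cox7a2 at 143.9 and 124.1 CPM and Cox7b at 63.6 and 52.0 CPM, so that these members did not all lean the same way.

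**Figure D2:**
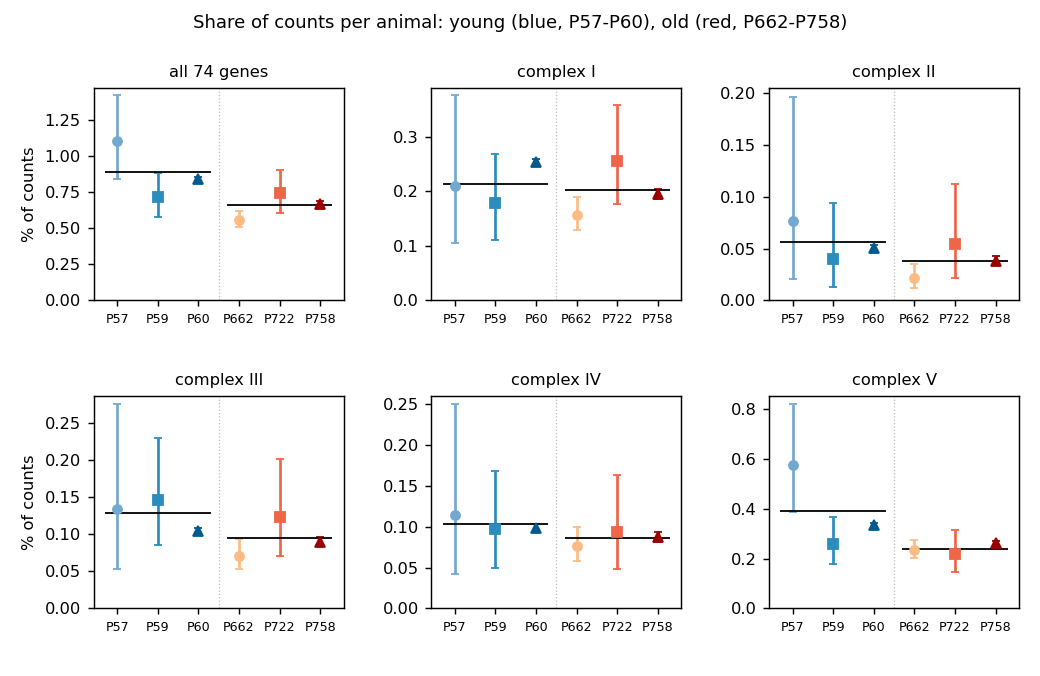
Share of an animal's counts, in percent, held by all 74 genes and by the genes of each complex, for the young animals P57, P59 and P60 and the old animals P662, P722 and P758. Points are animals, bars are exact 95% binomial intervals (counting error only) and black lines are the means of 3 animals. The complex V panel shows P57 at 0.574%, apart from the 5 others at 0.217% to 0.335%.

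Taken as a whole, the 74 genes held 1.11%, 0.719% and 0.843% of the counts of P57, P59 and P60, and 0.561%, 0.745% and 0.672% of those of P662, P722 and P758. The exact 95% binomial interval was 0.843% to 1.43% in P57 and 0.831% to 0.855% in P60. Old animals averaged 0.659% ± 0.0925 and young ones 0.890% ± 0.199 (SD over 3 animals), a difference of -0.231 percentage points, and the ages overlapped. Since the genes were chosen as a list, no p-value is given for such a share. Most of that difference lay in complex V, at 0.238% ± 0.0217 in old and 0.389% ± 0.164 in young animals. Within complex V, the F1 head with its catalytic subunits (Atp5a1, Atp5b, Atp5c1, Atp5d and Atp5e) had 0.177%, 0.178% and 0.202% in P662, P722 and P758 and 0.440%, 0.226% and 0.272% in P57, P59 and P60, without overlap. That difference of -0.127 percentage points was -0.0632 without P57, and in wells with at least 500 counts it was -0.0633 and the ages overlapped.

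Complex IV had 0.0858% ± 0.00846 in old and 0.103% ± 0.00983 in young animals, also without overlap, with P722 at 0.0931% and P59 at 0.0970%. Those neighbours differ by less than their counting error, and the ages overlapped with all wells kept, as a mean share over wells, without sebaceous-like wells and in wells with at least 500 counts. Complex III had 0.0949% ± 0.0270 and 0.128% ± 0.0209, complex II 0.0379% ± 0.0165 and 0.0559% ± 0.0186, and complex I 0.203% ± 0.0498 and 0.214% ± 0.0381 in old and young animals, all with overlap. In complex I the electron input arm (N module) was at 0.0638% in old and 0.0555% in young animals, the ubiquinone-binding Q module at 0.0316% and 0.0313%, and the membrane arm at 0.0983% and 0.119%. The membrane arm was taken here as all other Nduf members except Ndufa4, so it is a remainder and not a structural list. Ndufa4 was in none of these modules but stayed in the complex I share.

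The young mean leaned on P57, whose 58 member counts came from 13 wells, 3 of which were sebaceous-like. The 10 sebaceous markers summed to 8030 CPM in P57 and to 1020 to 1700 CPM in the other 5 animals. Without sebaceous-like wells the share of the 74 genes was 0.862% in P57, 0.683% in P59 and 0.828% in P60, against 0.545% to 0.745% in old animals, and the difference was -0.138 percentage points. Without P57 it was -0.122. In complex V the difference of -0.151 became -0.0954 without sebaceous-like wells and -0.0591 without P57. The difference of -0.0110 in complex I changed sign without sebaceous-like wells (0.0169), without P662 (0.0118) and without P60 (0.00890). With at least 500 counts per well the difference over the 74 genes was -0.0524, that of complex IV 0.00204 and that of complex I 0.0654. The median kept well held 298 counts in P57, 168 in P59, 219 in P662 and 347 in P722. That threshold therefore left out most wells of these animals. Within P60 and P758, the 2 deep animals, plates ranged from 0.737% to 0.916% and from 0.640% to 0.718%.

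Wells were grouped by the expression of other genes, with the 74 members and the mitochondrially encoded genes left out, so that the members took no part in making the classes. Clusters were named from fixed markers, and the names are rebuilt from the counts. Basal-like wells numbered 788, differentiated-like 237, upper hair follicle-like 136, outer bulge-like 96, proliferating-like 71, T cell-like 45, sebaceous-like 22 and Langerhans-like 12, and 499 stayed unnamed. None of the 10 leading genes of any of the 3 basal-like clusters was a basal marker. In 1 of these clusters, of 293 wells, the melanocyte marker Dct was among the 10. One basal-like and 1 differentiated-like cluster had Atf3, Fosb and other immediate early genes among their leading genes.

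Sebaceous-like wells gave the largest share of their footprints to the 74 genes of the 9 classes in P60, at 2.14% (95% interval 1.97% to 2.32%, 11 wells). In the other animals with at least 3 such wells the share was 2.08% in P57, 1.46% in P662 and 1.54% in P758. The basal-like wells of those animals had 0.815% in P60, 1.47% in P57, 0.432% in P662 and 0.635% in P758. The sebaceous-like share was thus above the basal-like one in each of these 4 animals, with counting intervals that overlapped in P57. P59 and P722 had 1 sebaceous-like well each, at 1.94% and 0.704%. Keratin genes held 0.892% of the counts of sebaceous-like wells and 7.14% of those of basal-like wells in P60, and without keratins and mitochondrially encoded genes in the total the shares were 2.18% and 0.881%.

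In P60 every complex had a higher share in sebaceous-like than in basal-like wells. Complex V had 1.04% against 0.308%, complex I 0.530% against 0.250%, complex IV 0.229% against 0.0958%, complex III 0.183% against 0.114% and complex II 0.160% against 0.0486%. In P758, from 60 member counts, complex V had 0.667% against 0.234% and complex I 0.513% against 0.184%, while complex IV had 0.0769% against 0.0832%. Atp5b alone had 3926 CPM in sebaceous-like and 1127 CPM in basal-like wells of P60, and 3333 and 704 CPM in P758. Atp5g3 had 1067 and 243 CPM in P60, and 1026 and 263 CPM in P758.

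**Figure D3:**
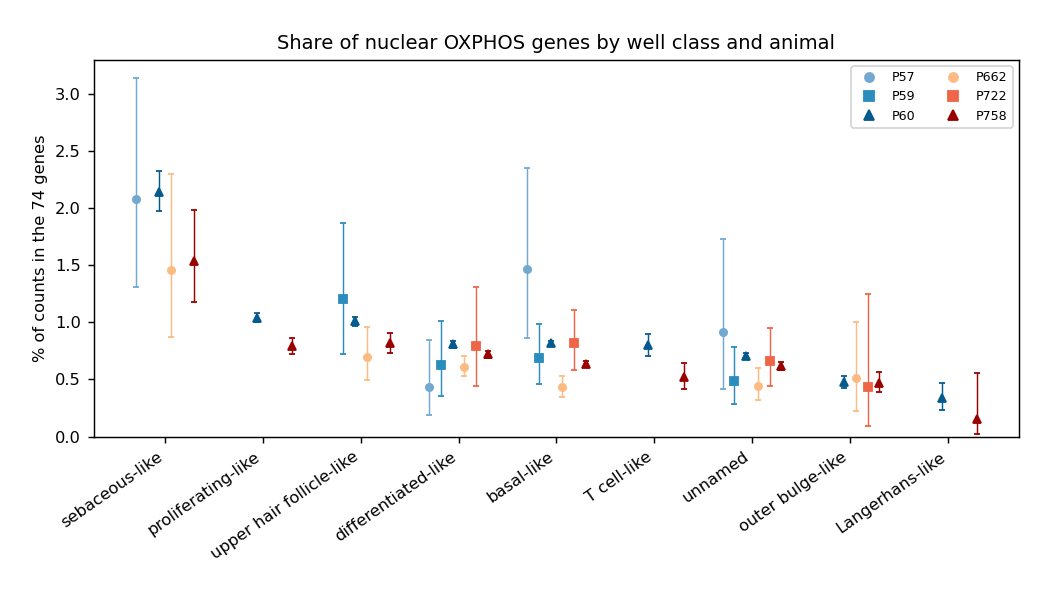
Share of counts, in percent, held by the 74 genes in each well class, 1 point per animal with at least 3 wells of the class, with exact 95% binomial intervals (counting error only). Sebaceous-like wells lie between 1.46% and 2.14%, and in P60 and P758 outer bulge-like and Langerhans-like wells lie lowest.

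At the other end in P60 and P758, outer bulge-like wells, which hold hair follicle stem cell markers, gave 0.478% and 0.472%. They gave 0.430% in P722, from 3 member counts, and 0.511% in P662, from 8, where basal-like wells were at 0.432% and the counting intervals overlapped. Langerhans-like wells, the antigen-presenting cells of the epidermis, gave 0.334% in P60 and 0.154% in P758, the latter from 2 member counts. Proliferating-like wells gave 1.04% in P60 and 0.792% in P758, upper hair follicle-like wells 1.01% and 0.814%, T cell-like wells 0.798% and 0.522%, and unnamed wells 0.703% and 0.616%. In both deep animals the order ran from sebaceous-like over upper hair follicle-like to outer bulge-like and Langerhans-like. Proliferating-like and upper hair follicle-like wells overlapped within counting error in each. The median depth of a P60 well was 2640 counts in proliferating-like, 1510 in basal-like, 1160 in sebaceous-like and 900 in outer bulge-like wells, and the part of depth in these shares was not tested.

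Differences between complexes across the classes were not tested. In proliferating-like wells complex V had 0.442% in P60 and 0.329% in P758, against 0.308% and 0.234% in basal-like wells, and complex IV had 0.135% and 0.115%, against 0.0958% and 0.0832%. Complex II had 0.0570% and 0.0416% there, against 0.0486% and 0.0383%. In outer bulge-like wells complex V had 0.157% in P60 and 0.178% in P758 and complex IV 0.0497% and 0.0425%, and complex II had 0.0450% and 0.0340%. Complexes I and III had 0.163% and 0.0636% there in P60, against 0.250% and 0.114% in basal-like wells, and 0.153% and 0.0637% in P758, against 0.184% and 0.0952%. All 5 complexes were thus below the basal-like values of both animals, with counting intervals that overlapped for all 5 in P758 and for complex II alone in P60. Mitochondrially encoded genes held 0.604% in outer bulge-like and 0.345% in basal-like wells of P60, and 0.399% and 0.505% in P758, so that the deep animals differed in direction.

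Tests of these classes against basal-like wells, with the animal as a block, were added after the shares had been seen. For sebaceous-like wells (P57, P60, P662 and P758) 8 members were tested and 0 were called, where 45.1% of 377 genes were called (19.9% higher, 25.2% lower). Of the 8, 7 were positive, with a median log2 difference of 0.62 against -0.63 over all genes. Atp5b had 0.80 (SE 0.40, adjusted p = 0.0884 by edgeR's quasi-likelihood test) and Atp5g3 1.03 (SE 0.64, adjusted p = 0.178). Without P758, Atp5b (0.88) and Atp5a1 (1.02) were called of 3 members tested, at 58.4% of 161 genes. Why the centre of all genes lay below 0 in this fit was not tested. The shares above do not use the scaling factors of the fit.

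Upper hair follicle-like wells gave 5 members tested and 0 called (23.2% of 920 genes called, 9.89% higher and 13.3% lower), with Atp5b at 0.57 and Atp5a1 at 0.55. Without P758, Atp5a1 was called at 0.65, of 2 members tested, where 25.3% of 178 genes were called. Outer bulge-like wells gave 3 members tested and 0 called (32.8% of 555 genes called, 16.8% higher and 16% lower), with Atp5b at -0.73, Atp5a1 at -0.67 and Uqcrc1 at -0.60. Without P662 or without P722, Atp5g3 became testable and was called lower, as 1 of 6 members tested, at 26% of 1026 and of 1113 genes. P60 had 47 CPM of Atp5g3 in outer bulge-like and 243 CPM in basal-like wells, and P758 had 0 and 263 CPM. Atp5g3 could not have passed the filter on low counts without its basal-like sums, where it is high. Its entry thus favoured a call in the lower direction, and the call is no separate support for a fall.

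The main class comparison was of differentiated-like with basal-like wells of the same 5 animals (all but P57). The differentiated-like and basal-like shares of the members together were 0.808% and 0.815% in P60, 0.719% and 0.635% in P758, 0.612% and 0.432% in P662, 0.794% and 0.816% in P722, and 0.624% and 0.684% in P59. The share was thus higher in differentiated-like wells of P758 and P662, with counting intervals that did not overlap in P758, and lower in the other 3 animals. Differentiated-like wells gave 16.5% of their counts to keratins in P60 and 13% in P758, against 7.14% and 5.99% in basal-like wells. With keratins and mitochondrially encoded genes out of the total, the differentiated-like and basal-like shares were 0.969% and 0.881% in P60, and 0.830% and 0.679% in P758.

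Of 7 members tested, 2 were called, Ndufa4 higher and Uqcrc1 lower in differentiated-like wells, where 47.2% of 1046 genes were called (21.2% higher, 26% lower). Ndufa4 (chr6:11900372-11907450) rose. It was first described in complex I and is now counted with complex IV by structure. It had 62.1 CPM (59 counts) in basal-like and 105.3 CPM (38 counts) in differentiated-like wells of P60, 26.9 CPM (9 counts) and 112.8 CPM (29 counts) in P758, and 0 and 92.3 CPM in P662. P59 had 0 counts and 2 counts, and P722 had 1 count in each class. The value was higher in differentiated-like wells in all 5 animals, though on 0 to 2 counts per class in P59 and P722. The log2 difference was 1.32 (SE 0.33, adjusted p = 0.000231 by edgeR's quasi-likelihood test). The values of P60, P758 and P662 lay below the cutoff of the filter on low counts. Ndufa4 passed it only through the differentiated-like sums of P59 and P722, at 2 counts and 1 count. It thus entered through the class where it is high, which favoured a call in that direction.

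Uqcrc1 fell, with a log2 difference of -0.75 (SE 0.23, adjusted p = 0.00287 by the same test). It had 596.6 CPM in basal-like and 338.1 CPM in differentiated-like wells of P60, 398.2 and 213.8 CPM in P758, 1180 CPM (5 counts) and 0 in P59, and 612 CPM (3 counts) and 0 in P722. In P662 it had 254 and 277 CPM (5 and 9 counts), the other way. With DESeq2 the difference was -0.79 with an adjusted p of 0.0838, so that Ndufa4 was the only member called there (33.5% of the genes called). Uqcrc1 passed the filter on low counts through basal-like sums, again the class where it is high. Without that filter Ndufa4 and Uqcrc1 were both still called, where 5 of 72 members and 1633 of 14333 genes were called.

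The other 5 members tested did not pass. Atp5b had a log2 difference of 0.20 (SE 0.24), Atp5a1 0.19 (SE 0.22), Cox6c, a small subunit of complex IV, 0.13 (SE 0.26), Cox4i1 0.05 (SE 0.22) and Atp5g3 -0.38 (SE 0.21, adjusted p = 0.134). Atp5g3 had 243 CPM in basal-like and 177 CPM in differentiated-like wells of P60, and 263 and 167 CPM in P758. It was called lower when library size alone set the scale (-0.65, adjusted p = 0.0114 by the same test, 54.7% of genes called) or when keratin counts defined the classes (-0.51, adjusted p = 0.0397, 42.5% of genes called). The median of the 7 members was 0.13, against -0.06 over all genes. With library size alone the median of all genes was -0.32 and that of the members -0.13.

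**Figure D4:**
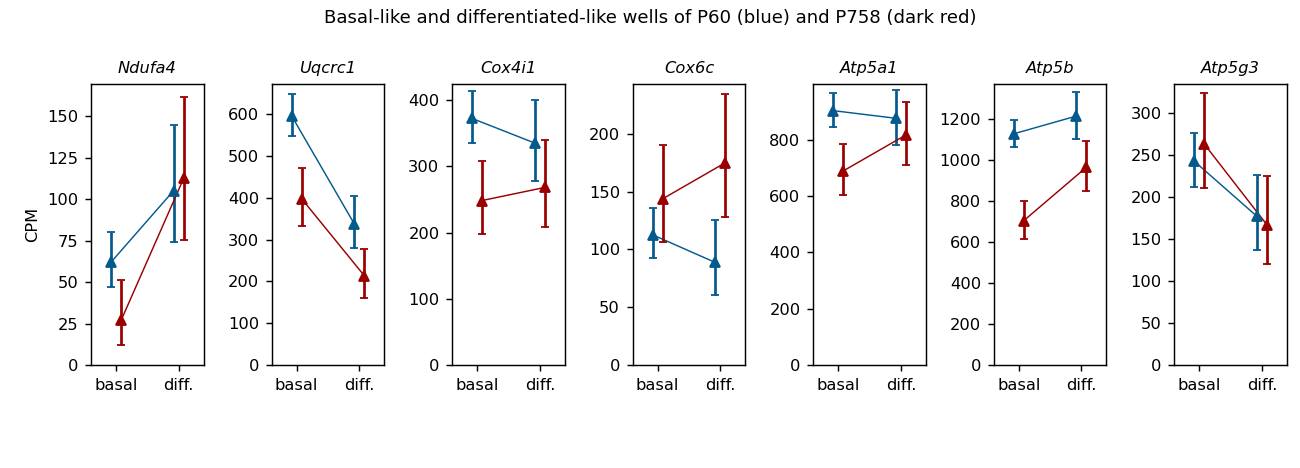
CPM of the 7 members tested, in basal-like and differentiated-like (diff.) wells of the 2 deep animals, P60 in blue and P758 in dark red, with exact 95% Poisson intervals (counting error only) and each panel on its own scale from 0. Ndufa4 is higher and Uqcrc1 and Atp5g3 are lower in differentiated-like wells of both animals.

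With a shallow animal left out, more members could be tested. A member can pass the filter on low counts through the sums of 1 class alone, and this was not checked for the members called here. Without P722, 46 members entered and 9 were called, where 38.3% of 4003 genes were called. Without P662 it was 8 of 44 (35.3% of genes) and without P59 7 of 47 (37.5%). Without P758 or without P60, 2 members entered and 0 were called (53.9% and 57.1% of genes). With the immediate early clusters left out, 8 of 33 members were called (37.1% of genes). In the fit without P722, Ndufa4 (1.49), Cox7b (1.39), Uqcrfs1 (1.03), Ndufa10 (0.93), Atp5j (0.77), Ndufv3 (0.69), Atp5d (0.68) and Atp5c1 (0.52) were called higher and Uqcrc1 (-0.55) lower, and 40 of the 46 differences were positive. The median log2 difference there was 0.39 for the members and 0.07 over all genes, of which 866 were called higher and 666 lower.

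These 9 belong to complexes I, III, IV and V, and 9 of 46 is a lower share than that of all genes called. Cox7b, a small subunit of complex IV, had 42 CPM in basal-like and 86 CPM in differentiated-like wells of P60, and 42 and 113 CPM in P758. Uqcrfs1, the Rieske iron-sulfur protein of complex III, had 84 and 136 CPM in P60, and 75 and 124 CPM in P758. In complex I, Ndufa10, an accessory subunit of the membrane arm, had 120 and 130 CPM in P60 but 45 and 152 CPM in P758. Atp5d, the δ subunit of complex V, had 141 and 211 CPM in P60 but 132 and 121 CPM in P758, so that the deep animals differed in direction for it.

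Within a class, no member passed the test between the ages. In basal-like wells 3 members were tested and 0 called, where 0% of 303 genes were called (11 at an unadjusted p under 0.05 in edgeR). Uqcrc1 had a log2 difference of -0.86 (SE 0.43), Atp5b -0.81 (SE 0.40) and Atp5a1 -0.34 (SE 0.41). In differentiated-like wells 5 members were tested and 0 called, where 1.33% of 751 genes were called (1.2% higher, 0.133% lower). There Cox4i1 had -0.46 (SE 0.42), Atp5b -0.22 (SE 0.72), Ndufa4 -0.18 (SE 0.56), Atp5g3 0.02 (SE 0.44) and Atp5a1 0.18 (SE 0.73). The young group of these fits was P59 and P60 alone (n = 2), since P57 had 3 wells of each class. The test of whether the age difference itself differs between the classes called 0 of 7 members, with 0% of 1046 genes called and 31 at an unadjusted p under 0.05 in edgeR. The largest interaction among the members was that of Ndufa4, at 1.08 (SE 0.79).

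Other mitochondrial genes were followed through fixed lists. In differentiated-like against basal-like wells, 4 of the 5 mitochondrially encoded genes tested were called lower, namely mt-Nd1 (-0.75), mt-Co1 (-0.69), mt-Nd2 (-0.60) and mt-Cytb (-0.54), which encode subunits of complexes I, IV, I and III. The 5th, mt-Nd5, had -0.28. In wells with at least 500 counts these 4 differences were 0.00, -0.01, -0.05 and 0.19, and none was called. Acad9, a complex I assembly factor, was called higher at 1.76, as the 1 tested of 41 assembly factors. Cs, citrate synthase of the tricarboxylic acid cycle, was called higher at 1.06, of 3 tested in its list, and Vdac1, the channel of the outer membrane, at 0.85, of 3 tested among carriers and import. All 3 stayed called with library size alone (1.48, 0.79 and 0.56) and in wells with at least 500 counts (1.73, 0.77 and 0.62). With DESeq2, Acad9 (1.67) and Cs (1.08) were called, and Vdac1 at 0.79 was not (adjusted p = 0.0842). Ndufa4l2 (-0.39) and Atpif1 (0.13), subunits outside the choice, and Pprc1 (-0.32), a coactivator of mitochondrial biogenesis, were tested and did not pass, and 0 of 75 mitochondrial ribosomal protein genes had enough counts.

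With age over all wells no gene of those lists was called. Of the 6 mitochondrially encoded genes tested, 5 had positive differences, with mt-Nd1 at 0.52 (SE 0.31) and mt-Nd4 at 0.37 (SE 0.34), where all 5 nuclear members had negative ones. Mitochondrially encoded genes held 0.424% ± 0.0260 of the counts when old and 0.369% ± 0.181 when young (SD over 3 animals), from 0.210% in P57 to 0.566% in P59. That difference of 0.0550 percentage points turned to -0.0244 without P57, and was 0.153 without P59, 0.0360 without P60 and 0.00658 in wells with at least 500 counts. In the other lists, Hspa9, an import chaperone, had -0.34, Vdac1 -0.09, Slc25a3 0.24, Cs -0.29, Ogdh 0.13 and Acad9 -0.13.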

How the data were processed

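The authors deposited, per the file headers, whole-number counts of footprint reads per gene and well. The submitters' processing notes name the build GRCm38.p6 and the tools featureCounts, UMI-tools, STAR, Bowtie2 and fastp, whose versions and settings are not used here. Wells with at least 100 counts were kept and summed per animal, and CPM is relative to the total of the kept wells. Differences were tested with edgeR 4.0.16 (R 4.3.3): TMM, filterByExpr, a robust quasi-likelihood fit, and p-values adjusted by Benjamini-Hochberg with a threshold of 0.05. Class tests had the animal as a block and at least 5 wells of each class (3 in the added tests). The biological coefficient of variation was 0.308 for age and 0.148 for class. DESeq2 1.42.0 and limma 3.58.1 on plates (correlation 0.595) were alternatives. The SE was derived from the log2 difference and its F statistic. Animals are identified by postnatal day alone, so p-values measure the spread between these sums.

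Wells were clustered in scanpy 1.11.5 (1500 variable genes, centred per plate, 15 components, 15 neighbours, Leiden resolution 1). Doublets were not called. A cluster was named for its best marker list, given a mean log2 ratio of at least 0.25 and at least 3 markers higher, and these thresholds were set after the clusters were seen. Intervals are exact at 95% and, like all depth limits here, cover counting error only. The fits were tested on simulated data. The members and lists were chosen with earlier results of these data known. Named are all members tested for age, in each complex those with the highest mean CPM, members called (or the 5 with the smallest p) and called genes of the other lists (or the 2 with the smallest p), except 1 member that is not reported here. Of plates of 1 age, no 2 were identical.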

Additional observations from a re-analysis of the deposited data

How the results depend on the processing

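No paired analysis of age was possible because the old and young plates come from different animals. Levels per codon were planned and not run, as no protein lengths were used. Members called stayed at 0 in the age fits, over all wells and within classes, and in the age by class fit, under every alternative run. Genes called for age over all wells became 111 without a filter and 9 with at least 10 counts in 3 animals. In the class comparison, members called became 1 with DESeq2, 1 with clusters on values not centred per plate, 5 without a filter and 8 without immediate early clusters, and ran from 0 to 9 with an animal left out. Genes called there became 1633 without a filter, 1356 in wells with at least 500 counts and 1237 without immediate early clusters, and ran from 123 to 1532 with an animal left out. For age in basal-like wells, genes called became 33 without a filter and ran from 0 to 13 with an animal left out. In differentiated-like wells they became 0 with DESeq2, 3 without a filter and 1 without immediate early clusters, and ran from 0 to 10. For age by class they became 1 without a filter and ran from 0 to 1. Against basal-like wells, genes called with an animal left out ran from 12 to 241 in sebaceous-like (members 0 to 2), from 45 to 413 in upper hair follicle-like (members 0 to 1) and from 38 to 289 in outer bulge-like wells (members 0 to 1). In wells with at least 500 counts the age difference in share, in percentage points, was -0.0524 for all members, 0.0654 for complex I and 0.00204 for complex IV. The genes tested changed with the filter and the animals left out; otherwise the cause was not tested. Of 262 refitted differences of single members, 256 kept their side of the threshold, 5 passed it and 1 (Uqcrc1 with DESeq2) no longer did. Of the 262, 28 changed sign, in all cases without being called. Refits in which a member was not tested are not among the 262. In the class comparison, neither Ndufa4 nor Uqcrc1 had enough counts to be tested without P758 or without P60. Ndufa4 was also below the filter, and so not tested, with clusters on values not centred per plate.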

Other observations

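The plates outside the comparisons gave low nuclear and high mitochondrially encoded shares. The 74 genes held 0.493% of the counts of the nuclease plate (95% interval 0.455% to 0.533%) and 0.322% of those of the Sca-1-negative plate (0.244% to 0.418%), where the 10 plates of the comparisons ran from 0.518% to 1.11%. The mitochondrially encoded genes held 1.26% and 1.20% there, against 0.210% to 0.566% on the 10 plates. The nuclease plate held P758 cells, whose own plates had 0.718% and 0.640% for the 74 genes. The Sca-1-negative plate joins animals of both ages, and its wells were not told apart by animal.

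Single wells varied widely within a class. In P60 a basal-like well had a median of 9 member counts, from 0 to 165, and 7 of the 404 wells had none. The 72 differentiated-like wells of P60 had a median of 23 (1 to 239), and the 11 sebaceous-like wells a median of 19 (4 to 167), with a share from 0.839% to 4.09% per well. In P758 the medians were 5 in basal-like and 10 in differentiated-like wells.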
